A study of Mus musculus with 6 samples.

Results

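The genes described here are 10 regulators of the passage of a cell from G1 into S phase: the cyclin genes Ccnd1, Ccnd2 and Ccnd3, the kinase genes Cdk2, Cdk4 and Cdk6, the retinoblastoma family genes Rb1 and Rbl1, and the transcription factor genes E2f1 and Myc. They were taken from the authors' deposited RNA-seq table by gene symbol, and 10 of 10 were found among its 19940 genes. The RNA came from hand-picked pancreatic islets, the clusters of endocrine cells in the pancreas, of C57BL6/J mice. The pregnant group held 3 samples from gestational day 14.5, and the nonpregnant group held 3 samples labelled as littermates. The labels give no age for the animals and name no transgene or treatment. The deposited table holds 1 mean read count per gene and group and the authors' own test, so no value per sample, no SD and no n of independent animals stands behind any number below. A gene was called when its adjusted p (FDR) by the authors' deposited table was under 0.05. That p was adjusted over all genes of the table, and its tool is not named in the labels or the file headers.

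In G1, the D cyclins bind the kinases CDK4 and CDK6, and these complexes phosphorylate the retinoblastoma protein and its relatives, which otherwise hold E2F factors in check. E2F1 then switches on genes of DNA replication, among them the E cyclins, which activate CDK2. MYC, which acts as a dimer with MAX at E-box motifs, promotes growth and entry into the cycle. In mice, CDK4 and cyclin D2 are known to be needed for the postnatal growth of beta cell mass, and beta cells divide more often in pregnancy.

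Of the 10 genes, Myc and E2f1 were higher in islets of pregnant mice and the other 8 did not pass the test. Myc rose 3.21-fold and E2f1 1.69-fold by the authors' deposited table. The D cyclins, the G1 kinases and the retinoblastoma genes stood between 0.82 and 1.36 of their nonpregnant level in that table, each with an adjusted p above 0.05. In whole islets, more cells of a type and more RNA of a gene per cell cannot be told apart. So 2 of 10 were called higher, against 7.57% of all 19940 genes, and 0 of 10 were called lower, against 4.15%. At an unadjusted p under 0.05, 3 were higher and 0 lower by the authors' deposited table. At that unadjusted level, 4418 of all 19940 genes passed in either direction. By adjusted p, the authors' deposited table called 11.7% of its genes in either direction. All 10 averaged 10 or more reads across the groups. Among the 15682 genes that reached this level, 9.54% were called higher, 5.27% lower and 14.8% in either direction. The median log2 ratio of the 10 genes was 0.12, against -0.016 over all genes, and it was 0.031 when the read means were scaled to their totals.

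The promoter windows show which of these genes carry, near the annotated start, the letters that MYC or E2F factors are known to bind. RefSeq windows on GRCm38.p6, running from 250 bases before the start to 50 bases after it, were matched by symbol for 6 of the 10 genes: Ccnd3, Cdk2, Cdk4, Cdk6, E2f1 and Rbl1. The E-box CACGTG reads the same on both strands and stood in 7.15% of all 32851 windows. The E2F motif was searched on both strands as TTTCCCGC, TTTCGCGC, TTTGCCGC or TTTGGCGC, and at least 1 of these stood in 2.26% of windows. The motif TTCNNNGAA, which STAT factors such as STAT5 are known to bind, stood in 8.30% of windows and in 0 of the 6 genes. The windows of Cdk4 (chr10:127063285-127063584, plus strand), Cdk2 (chr10:128705002-128705301, minus strand) and Rbl1 (chr2:157204485-157204784, minus strand) are shown because they hold these motifs. That of E2f7 (chr10:110745189-110745488, plus strand) is shown because E2f7, a repressor of the E2F family, rose 3.9-fold by the authors' deposited table. Capitals mark E-boxes in Cdk4 and the E2F motif, on either strand, in the others.
Cdk4: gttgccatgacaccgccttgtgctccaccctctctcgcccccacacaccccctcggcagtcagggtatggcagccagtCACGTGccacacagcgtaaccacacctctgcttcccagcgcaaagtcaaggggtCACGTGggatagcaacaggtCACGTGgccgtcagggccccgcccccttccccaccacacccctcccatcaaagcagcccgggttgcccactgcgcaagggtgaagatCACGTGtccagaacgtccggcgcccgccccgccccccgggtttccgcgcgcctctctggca
Cdk2: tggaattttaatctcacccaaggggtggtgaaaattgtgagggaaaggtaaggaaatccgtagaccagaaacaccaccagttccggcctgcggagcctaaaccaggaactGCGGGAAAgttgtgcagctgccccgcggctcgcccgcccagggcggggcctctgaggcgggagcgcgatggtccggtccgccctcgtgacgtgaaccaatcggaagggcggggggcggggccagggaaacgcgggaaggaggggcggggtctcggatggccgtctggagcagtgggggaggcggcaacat
Rbl1: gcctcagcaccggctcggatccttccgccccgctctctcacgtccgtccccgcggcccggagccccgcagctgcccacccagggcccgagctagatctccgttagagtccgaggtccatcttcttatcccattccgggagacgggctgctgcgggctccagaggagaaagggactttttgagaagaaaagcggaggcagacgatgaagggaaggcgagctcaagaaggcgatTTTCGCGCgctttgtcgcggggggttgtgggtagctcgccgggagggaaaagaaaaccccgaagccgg
E2f7: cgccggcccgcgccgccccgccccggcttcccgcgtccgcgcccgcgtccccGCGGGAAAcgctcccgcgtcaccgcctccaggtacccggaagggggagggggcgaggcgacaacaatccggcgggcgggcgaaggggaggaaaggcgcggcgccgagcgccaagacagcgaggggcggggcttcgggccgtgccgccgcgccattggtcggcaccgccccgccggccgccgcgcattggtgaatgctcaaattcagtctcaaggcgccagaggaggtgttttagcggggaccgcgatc

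The Cdk4 window held 4 E-boxes, whose first bases lie 172, 118, 98 and 11 bases before the annotated start. Of all 32851 windows, 8 held 4 or more. The Cdk6 window held 1 E-box, 220 bases before its RefSeq start. The E2F motif lay 140 bases before the start in Cdk2, 18 in Rbl1 and 198 in E2f7, counted from the motif's first base in the printed direction. The E2f1 window and both Ccnd3 windows held neither motif. The RefSeq start behind the E2f1 window lies 466 bases inside the gene as GENCODE M21 annotates it, so the window does not cover the GENCODE start. The same holds for Cdk6, whose RefSeq start lies 2408 bases inside the GENCODE gene, and for the second Ccnd3 window, at 88416 bases inside.

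Myc encodes the transcription factor MYC and is the gene of the 10 that changed most. In the authors' deposited table it had a mean of 1327 reads in pregnant islets, against 424 reads in nonpregnant islets. The deposited ratio was 3.21-fold, or 1.68 on the log2 scale (adjusted p = 1.3e-12). Among the 15682 genes with at least 10 mean reads, 332 (2.12%) had a larger log2 ratio. Per length, its level was 5.57 reads per kilobase of annotated exon per 1000000 summed mean reads (RPKM, computed here) in pregnant islets and 1.85 RPKM in nonpregnant islets. Myc (ENSMUSG00000022346) is on chromosome 15 of GRCm38, plus strand, from 61985391 to 61990374, and no other annotated gene overlaps it.

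E2f1 encodes the activating factor E2F1 and was the other gene called. Its mean by the authors' deposited table was 2507 reads in pregnant islets, against 1525 reads in nonpregnant islets. The ratio was 1.69-fold, or 0.75 on the log2 scale (adjusted p = 4.03e-09), by the authors' deposited table. Of the 15682 genes, 906 (5.78%) had a larger log2 ratio. Its level was 9.07 RPKM in pregnant islets and 5.72 RPKM in nonpregnant islets, which put it above Rb1 in the pregnant mean (7.32 RPKM) and below Rb1 in the nonpregnant mean (7.22 RPKM). E2f1 (ENSMUSG00000027490) is on chromosome 2, minus strand, from 154559407 to 154569892, with no overlapping gene in GENCODE M21.

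**Figure D1:**
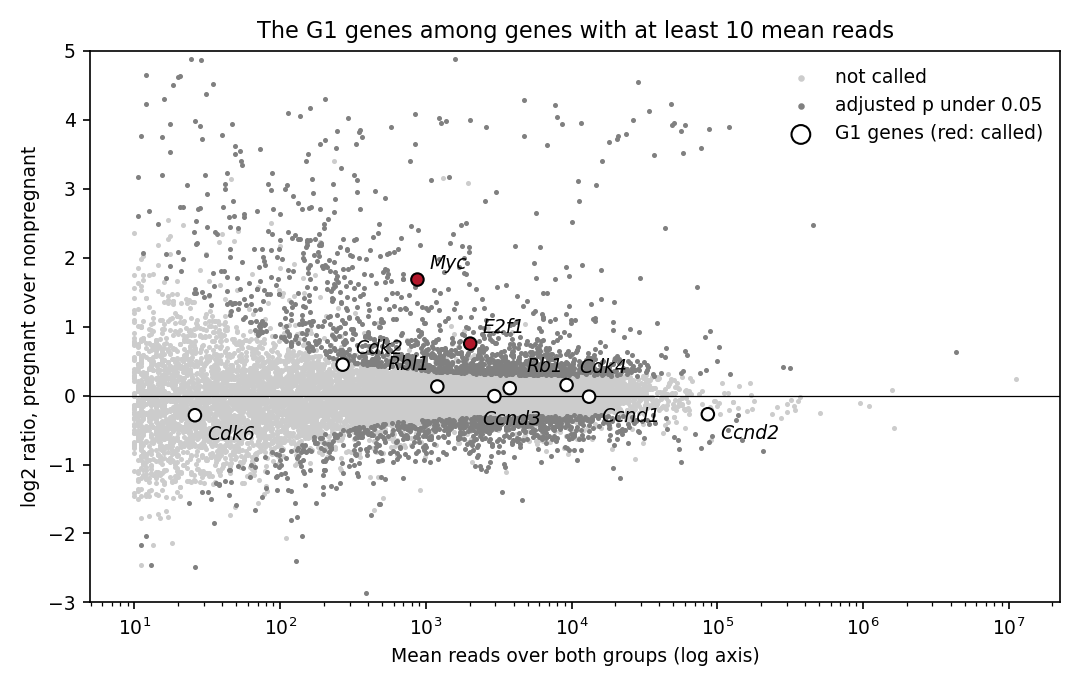
Each point is a gene with at least 10 mean reads, placed by its mean reads over both groups (horizontal log axis) and its deposited log2 ratio of pregnant over nonpregnant (vertical axis); the 10 G1 genes are ringed, and red marks those called. Myc lies at 1.68 and E2f1 at 0.75, uncalled genes also lie above E2f1, and 24 genes with a log2 ratio below -3 or above 5 are not drawn.

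The D cyclins are the regulatory partners of CDK4 and CDK6, and 0 of 3 were called. Ccnd2, the cyclin D2 gene, had a mean of 77171 reads in pregnant islets and 95271 reads in nonpregnant islets. Its ratio was 0.83 by the authors' deposited table, with p = 0.113 and an adjusted p of 0.376. Ccnd2 stood at 93.6 RPKM in pregnant islets and 120 RPKM in nonpregnant islets, and 1.35% of the 15384 annotated genes with at least 10 mean reads had a higher level. Ccnd1, the cyclin D1 gene, had a mean of 12960 reads in pregnant islets and 13426 reads in nonpregnant islets, a deposited ratio of 0.99 (adjusted p = 1). Ccnd3, the cyclin D3 gene, had 2912 mean reads in pregnant islets and 2999 mean reads in nonpregnant islets, also a deposited ratio of 0.99 (adjusted p = 1). The sign of the Ccnd3 ratio depended on scaling: its log2 ratio was -0.0080 as deposited and 0.0075 when the median gene was set to 0.

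By level per kilobase, Ccnd2 made up 72.7% of the summed D cyclin level in pregnant islets and 76.0% in nonpregnant islets. Ccnd1 made up 24.4% in pregnant and 21.4% in nonpregnant islets, and Ccnd3 2.94% in pregnant and 2.57% in nonpregnant islets. The exon union of Ccnd3 spans 8775 bases, against 2113 bases in its longest transcript of the GENCODE basic set. With the longest transcript as gene length, chosen after seeing the data, the Ccnd3 share was 8.09% in pregnant and 7.08% in nonpregnant islets. The summed D cyclin level was 129 RPKM in pregnant islets and 158 RPKM in nonpregnant islets, a ratio of 0.817 for which no error can be given. RPKM is scaled to the summed mean reads, so this ratio is not on the scale of the deposited ratios and lies lower. Scaled to totals, the log2 ratio of Ccnd2 was -0.357, against -0.271 as deposited. In both groups the order of the 3 genes was thus Ccnd2, Ccnd1, Ccnd3.

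The kinases were likewise unequal in level, and 0 of 3 were called. Cdk4 had a mean of 9621 reads in pregnant islets and 8873 reads in nonpregnant islets, 1.11-fold by the authors' deposited table (adjusted p = 0.435). Cdk6 had 23 mean reads in pregnant and 29 mean reads in nonpregnant islets, a deposited ratio of 0.82 (adjusted p = 0.888). Per kilobase, the Cdk4 level was 1801 times that of Cdk6 in pregnant islets and 1317 times in nonpregnant islets. Of the annotated genes with at least 10 mean reads, 99.6% had a higher level per kilobase than Cdk6. Cdk2, the partner of the E cyclins, had 307 mean reads in pregnant islets and 230 mean reads in nonpregnant islets. Its deposited ratio of 1.36 had the smallest p among the members not called (p = 0.0135, adjusted p = 0.0915 by the authors' deposited table). With adjustment restricted to the 15682 genes of at least 10 mean reads, the Cdk2 p was 0.0724.

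The retinoblastoma proteins bind and restrain E2F factors, and neither gene was called. Rb1, which encodes the retinoblastoma protein, had a mean of 3859 reads in pregnant islets and 3671 reads in nonpregnant islets. Its ratio was 1.08 by the authors' deposited table (adjusted p = 0.689). Rbl1, the gene of the related p107, had 1239 mean reads in pregnant and 1159 mean reads in nonpregnant islets, a deposited ratio of 1.10 (adjusted p = 0.648). Rbl2, the gene of p130 and not 1 of the 10, had 4694 mean reads in pregnant and 5364 mean reads in nonpregnant islets, a deposited ratio of 0.9 (adjusted p = 0.428). By level per kilobase, Rb1 made up 43.7% of these 3 genes in pregnant and 40.3% in nonpregnant islets. Rbl1 made up 14.1% in pregnant and 12.8% in nonpregnant islets, and Rbl2 42.3% in pregnant and 46.9% in nonpregnant islets. With the longest transcript as length, chosen after seeing the data, Rb1 made up 40.7% in pregnant and 37.3% in nonpregnant islets. On that basis Rbl2 made up 46.8% in pregnant and 51.5% in nonpregnant islets. The order of Rb1 and Rbl2 in pregnant islets thus depended on the length used.

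**Figure D2:**
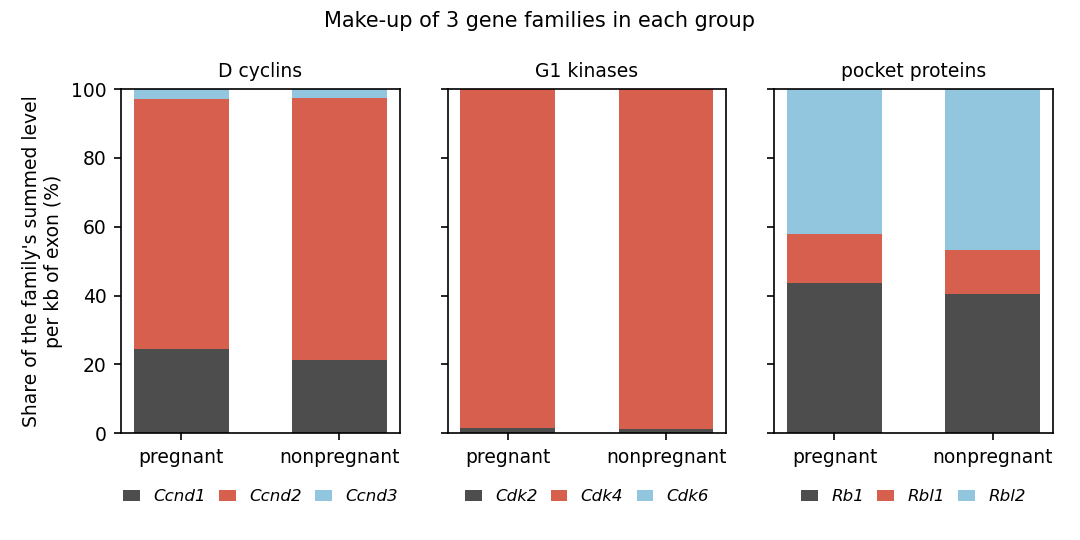
Stacked bars give each gene's share, in percent, of its family's summed level per kilobase of annotated exon, with the pregnant mean left of the nonpregnant mean. Ccnd2 takes over 70% of the D cyclins and Cdk4 over 98% of the G1 kinases in both groups. Rb1 and Rbl2 each take over 40% of the retinoblastoma family genes in both groups. Each bar is 1 group mean, with no error.

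Over both groups the order of levels per kilobase, from high to low, was Ccnd2, Cdk4, Ccnd1, E2f1, Rb1, Ccnd3, Myc, Rbl1, Cdk2 and Cdk6. Ccnd2 to Cdk6 spanned 93.6 to 0.0188 RPKM in pregnant islets and 120 to 0.0245 RPKM in nonpregnant islets. Cdk4 averaged 33.8 RPKM in pregnant and 32.3 RPKM in nonpregnant islets, and Ccnd1, its neighbour in the order, 31.4 RPKM in pregnant and 33.7 RPKM in nonpregnant islets. Neighbours in this order cannot be set against a spread over samples. With the longest transcript as length, Ccnd3 moved up to place 4 and E2f1 down to place 6.

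**Figure D3:**
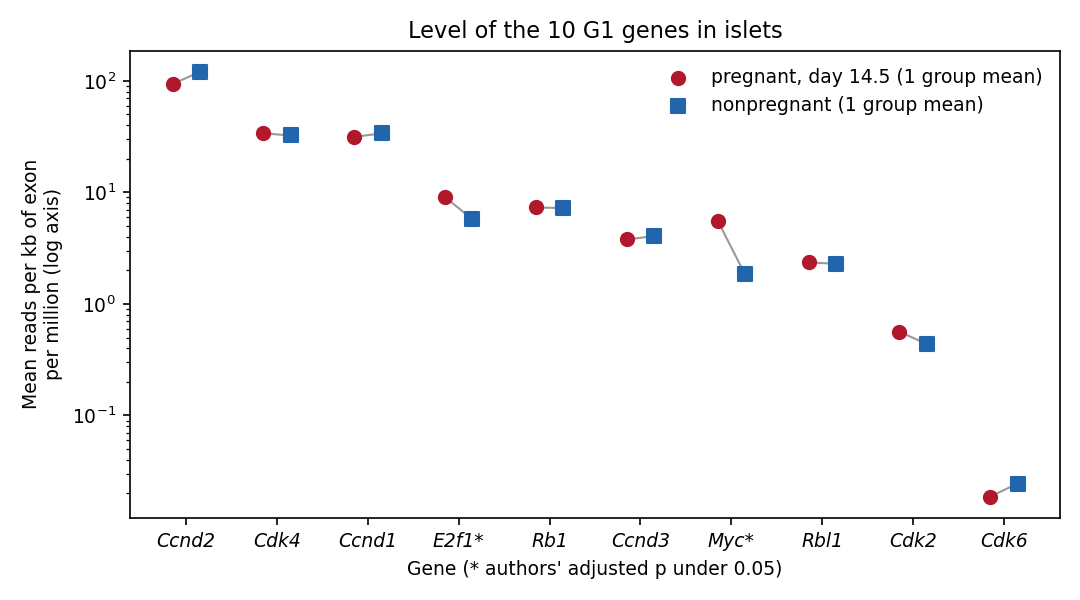
Points give the level of each gene in reads per kilobase of annotated exon per 1000000 summed mean reads (log axis), with the pregnant mean (red circle) left of the nonpregnant mean (blue square). The genes differ among themselves far more than between the groups, from about 0.02 RPKM for Cdk6 to 120 RPKM for Ccnd2 in nonpregnant islets, and an asterisk marks Myc and E2f1.

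The strand setting of the counting is not stated in the labels or the file headers, and genes on the opposite strand overlap the exons of several members. Oraov1 (LTO1 in GENCODE M21) covers 23.4% of the exon bases of Ccnd1, and Tspan31 covers 19.7% of those of Cdk4. Neither was called by the authors' deposited table (adjusted p = 0.16 for Oraov1 and 0.077 for Tspan31). Rcbtb2 covers 8.11% of the exon bases of Rb1 and was higher in pregnancy, with 3727 mean reads in pregnant islets and 2036 mean reads in nonpregnant islets (adjusted p = 3.54e-13 by the authors' deposited table). Its part in the Rb1 value was not tested. Lpar6, which was not called (adjusted p = 0.582 by the authors' deposited table), covers 6.78% of the exon bases of Rb1. Bysl covers 4.11% of Ccnd3 and Pmel 0.547% of Cdk2. Separate antisense genes cover 3.95% and 3.91% of Ccnd2, and another covers 2.63% of Cdk6.

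Several other genes of the G1 machinery rose. A list of 8 genes held the E cyclins, activators of G1 kinases and small subunits that bind such kinases. Of these, 4 rose and 0 fell, against 7.57% higher and 4.15% lower among all genes of the table, with a median log2 ratio of 0.31. Ccne1 and Ccne2, the E cyclin genes, rose 1.82-fold and 1.39-fold by the authors' deposited table (adjusted p = 4.79e-06 and 0.024). Cks2 and Cks1b, small subunits that bind cyclin-dependent kinases, rose 3.85-fold and 1.61-fold by the authors' deposited table (adjusted p = 2.52e-07 and 0.00238). The activator genes Cdc25a, Ccnh, Cdk7 and Mnat1, named after their values were seen, were not called. Their deposited ratios were 1.1, 1.0, 0.96 and 1.04. The list was chosen from general knowledge with earlier results of these data known, as were those below.

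Genes of CDK inhibitors moved in both directions, with 2 of 7 higher (28.6%, against 7.57% of all genes) and 1 lower (14.3%, against 4.15%). Cdkn2c, which encodes the CDK4 and CDK6 inhibitor p18, had 1327 mean reads in pregnant islets and 556 mean reads in nonpregnant islets, 2.45-fold by the authors' deposited table (adjusted p = 2.15e-17). Per kilobase, Cdkn2c stood at 0.167 of the Cdk4 level in pregnant islets and 0.0758 in nonpregnant islets. Cdkn2d, a member of the same inhibitor family, rose 1.69-fold by the authors' deposited table (adjusted p = 0.0178). Cdkn1b, the gene of p27, fell to 0.78 in pregnant islets, with 6431 mean reads there and 8423 mean reads in nonpregnant islets (adjusted p = 0.0095). Cdkn1a, the gene of p21, was not called, at a ratio of 0.85 by the authors' deposited table (adjusted p = 0.624).

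Among 10 further E2F, DP and retinoblastoma family genes, 3 rose (30.0%, against 7.57% of all genes) and 0 fell, with a median log2 ratio of 0.15. These were E2f8 and E2f7, the atypical repressors of the family, and E2f2, an activator. E2f8 had 246 mean reads in pregnant islets, against 38 mean reads in nonpregnant islets, a 6.49-fold difference by the authors' deposited table (adjusted p = 2.57e-24). E2f7 rose 3.9-fold and E2f2 1.43-fold by the authors' deposited table (adjusted p = 2.73e-19 and 0.03). E2f3, also an activator, was not called, at 1.12-fold by the authors' deposited table (adjusted p = 0.627). Of 6 genes of B-Myb and of the MuvB complex, which acts with p107 or p130 at cell cycle promoters, 1 rose (16.7%, against 7.57% of all genes). It was Lin9, at 1.37-fold by the authors' deposited table (adjusted p = 0.0349).

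Classical target genes of E2F rose in most cases. Of 22 such genes of S phase, 18 (81.8%) rose and 0 fell, against 7.57% higher and 4.15% lower among all genes, with a median log2 ratio of 0.81. Uhrf1, whose product keeps DNA methylation through replication, rose 7.71-fold, and the licensing factor gene Cdc6 5.6-fold, by the authors' deposited table. Rrm2 of deoxynucleotide synthesis rose 4.08-fold and the helicase subunit gene Mcm5 3.23-fold by the authors' deposited table. The 4 that did not pass were Tk1, Gins2, Chek1 and Tyms, named after their values were seen. Their deposited ratios were 1.36, 1.36, 0.82 and 0.82. Of the 17 targets with a promoter window, 8 held the E2F motif, and 8 of these 8 were called higher, against 6 of the 9 without it. Over all genes with a window and at least 10 mean reads, 13.7% of 459 genes with the motif were called higher, against 9.45% of 10216 without it. For the STAT motif, 12.4% of 914 genes with it were called higher, against 9.37% of 9761 without it. Called lower were 3.27% with the E2F motif and 5.57% without it, and 4.70% with the STAT motif and 5.54% without it. The median log2 ratio was 0.005 with the E2F motif and -0.0145 without it. With the STAT motif it was -0.018, and -0.013 without it. These values are a description of the windows, and many genes share both motif and function.

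Classical target genes of MYC were called in a single case. Of 21 genes of ribosome biogenesis and growth, 1 rose and 0 fell, with a median log2 ratio of -0.096. That is 4.76% higher, against 7.57% of all genes, a share no larger than that of the whole table. The gene that rose was Npm1, which encodes the nucleolar protein nucleophosmin, with 14746 mean reads in pregnant islets and 11450 mean reads in nonpregnant islets (1.32-fold by the authors' deposited table, adjusted p = 0.0019). Over all genes with a window and at least 10 mean reads, 8.63% of 1194 genes with an E-box were called higher, against 9.76% of 9481 without one. Cdk4, with its 4 E-boxes, was at 1.11-fold without passing, as given above. Binding of MYC to these windows was not tested.

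Among 13 genes of a wider MYC network, 1 rose and 0 fell (median log2 ratio -0.12). The list holds the MYC family, MAX and its partners, and also Mlx, Mlxip, Mlxipl and Zbtb17, which are not partners of MAX. Those last genes, named after their values were seen, were not called, at deposited ratios of 1.1, 0.91, 0.62 and 0.89. The list's share of 7.69% is close to the 7.57% of all genes called higher. The gene that rose was Mxd3, which encodes a MAX partner that competes with MYC. Mxd3 had 199 mean reads in pregnant islets, against 41 mean reads in nonpregnant islets, 4.88-fold by the authors' deposited table (adjusted p = 4.5e-16). Max itself stood at 0.92 of its nonpregnant level by the authors' deposited table (adjusted p = 0.626). Per kilobase, Myc was at 0.36 of the Max level in pregnant islets and 0.103 in nonpregnant islets. The paralogs Mycn and Mycl were not called, with 92 and 62 mean reads in pregnant islets, against 79 and 37 mean reads in nonpregnant islets (adjusted p = 0.731 and 0.464 by the authors' deposited table). Of 8 genes of cyclin, MYC and p27 turnover, 0 rose and 0 fell by the authors' adjusted p. Among all genes, 7.57% rose and 4.15% fell. At an unadjusted p under 0.05, the turnover genes numbered 0 higher and 1 lower. At that unadjusted level, 2 genes of the MYC network were higher and 2 lower, and 2 MYC targets were higher and 3 lower. Of the E2F targets, 20 were higher and 1 lower. Among all 19940 genes, 4418 passed at that level in either direction.

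**Figure D4:**
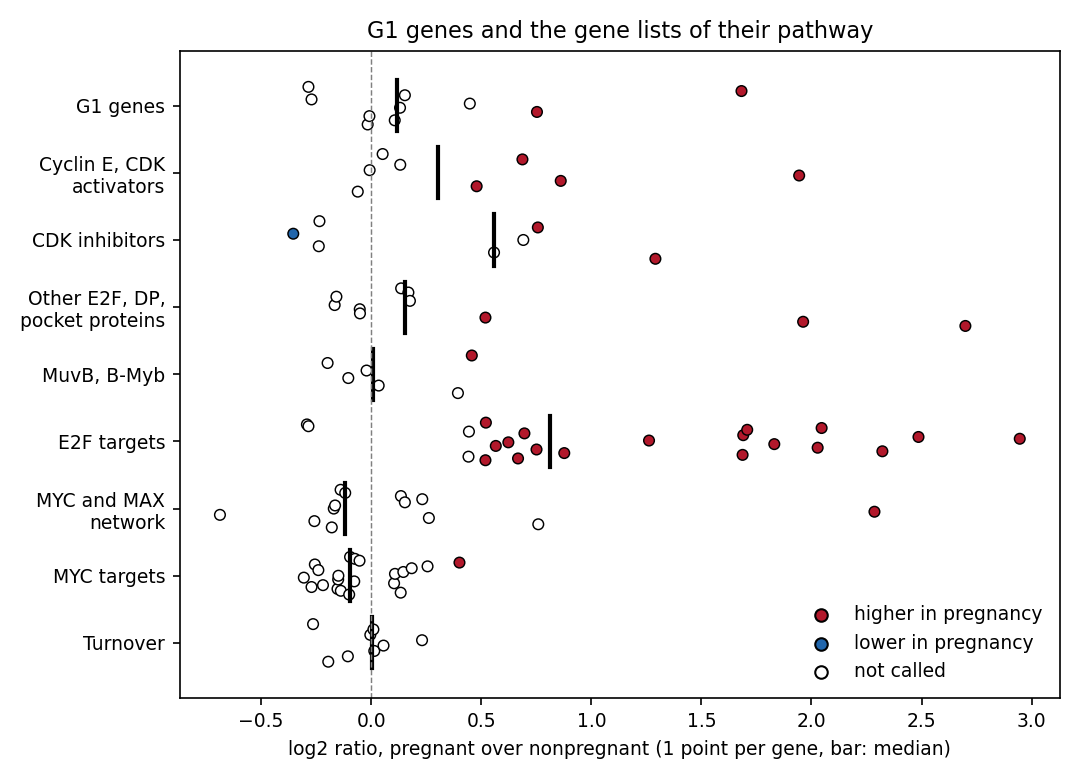
Each point is a gene, placed by its deposited log2 ratio of pregnant over nonpregnant; red and blue mark genes called higher and lower, and bars mark each list's median. E2F targets lie mostly to the right, with a median of 0.81, while MYC targets lie around their median of -0.096.

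The insulin genes Ins1 and Ins2, which mark islet beta cells, had 5230668 and 11981604 mean reads in pregnant islets, against 3449821 and 10394603 in nonpregnant islets. Of 8 beta cell markers, Ins1 alone was called (adjusted p = 1.61e-08 by the authors' deposited table), Ins2 was not (adjusted p = 0.288), and Slc2a2, Ucn3 and Nkx6-1 had deposited ratios of 0.83, 0.91 and 0.96. Together the 8 took 21.7% of summed mean reads in pregnant and 18.5% in nonpregnant islets. Markers of some other cells moved with the groups beside the rise of Myc and E2f1. Among all genes, 7.57% were called higher and 4.15% lower, to be set beside each marker count. Acinar cells make digestive enzymes and surround islets. Of their 11 measured markers, 10 were higher, with 1.26% of mean reads in pregnant and 0.106% in nonpregnant islets, and Prss2 was at 15.4-fold by the authors' deposited table. Markers of dividing cells were higher in 8 of 8, with 0.0103% of mean reads in pregnant and 0.00212% in nonpregnant islets. The part of either in the values of Myc, E2f1 and the lists was not tested. With acinar markers, Tph1 and the 20 genes with the most reads left out of the totals, the log2 ratio was 1.66 for Myc and 0.73 for E2f1. Endothelial markers were called in 0 of 8, with 0.0438% of mean reads in pregnant and 0.0468% in nonpregnant islets. Of 5 alpha cell markers, 2 were lower, with 1.61% of mean reads in pregnant and 2.40% in nonpregnant islets, and of 5 delta and PP cell markers 1 was lower (0.737% in pregnant and 0.873% in nonpregnant islets).

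Of 9 ductal markers 2 were higher (22.2%, against 7.57% of all genes), with 0.0549% of mean reads in pregnant and 0.0468% in nonpregnant islets. Of 9 leukocyte markers 1 was higher (11.1%, against 7.57% of all genes), Lyz2, and 4 had a log2 ratio below 0. The 9 took 0.0246% of mean reads in pregnant and 0.0224% in nonpregnant islets. That sum includes C1qa, named with Lyz2 after the values were seen. C1qa was not called, with 6370 mean reads in pregnant and 3195 mean reads in nonpregnant islets. Of 8 markers of fibroblasts and related cells, 0 were called, against 11.7% of all genes in either direction. They took 0.00387% of mean reads in pregnant and 0.00472% in nonpregnant islets. No marker in these lists was at 0 in either group. Krt19 for duct, Ptprc for leukocytes and Col1a1 for fibroblasts had 78, 523 and 199 mean reads in pregnant islets, against 63, 587 and 303 mean reads in nonpregnant islets, and Pecam1 for endothelium had 3331 in pregnant and 3460 in nonpregnant islets.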

How the data were processed

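RNA was extracted from hand-picked islets and sequenced from TruSeq libraries, per the labels' protocols. TopHat2 2.0.12, TopHat, Bowtie and HTSeq 0.5.3p3 with the mouse build GRCm38 are named in the submitters' processing notes. Library scaling and strand setting are not given there. Per the file headers, the deposited table gives for each gene a mean read count per group, a fold change (a linear ratio of pregnant over nonpregnant), its log2 and a p-value with its adjusted form, all made by the authors. Recomputed Benjamini-Hochberg values differed from the authors' adjusted p-values by at most 0.00203. Against the log2 of the ratio of read means, the deposited log2 ratio was higher by 0.035 (median, 10102 genes). The mean reads summed to 87654449 in the pregnant and 84493872 in the nonpregnant group, and the depth of single libraries is not known. The series' design text gives 5 animals for each group, whereas the labels list 3 samples in each. Nothing says that each sample is 1 animal, so the spread behind the authors' p-values may be technical.

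Of 19963 lines, 21 genes stood on more than 1 and were counted once, which left 19940. The edgeR fit planned for counts per library needs values per library, so calls use the authors' adjusted p under 0.05. Gene lengths are the union of exons in GENCODE M21, which held 96.6% of the gene IDs. RPKM here is mean reads per kilobase of that length per 1000000 summed mean reads. Motifs were searched as exact letters. Of the markers listed, Amy2b was not matched by symbol or ID. The genes named beside the 10 were the 4 of each list with the smallest p among those called, and a fixed set (Ccne1, Ccne2, Cdkn1a, Cdkn1b, Cdkn2c, Rbl2, E2f2, E2f3, E2f7, E2f8, Mycn, Mycl, Max). The genes and all lists were chosen with earlier results of these data known. Python 3.11.15, pandas 2.3.3, numpy 2.4.6 and scipy 1.17.1 were used. The adjustment was tested on simulated p-values, and the motif search on short written sequences with known answers.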

Additional observations from a re-analysis of the deposited data

How the results depend on the processing

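Group means allow no refit, so leaving out single libraries, edgeR, DESeq2, another filter on low counts and size factors were not run. No paired analysis was possible because the table holds 1 mean per group and no column per replicate. The counts of the 10 genes called higher and lower stayed within 1.5 times of 2 and 0 under every threshold tried. A threshold of 0.1 added Cdk2 to the higher genes, which gives 3. The log2 ratios of the 10 genes kept their sign in 59 of 60 comparisons over scalings and pseudocounts, under which no p could be recomputed. Adjustment over genes with at least 10 mean reads left the call of all 10 as it was. The exception was Ccnd3, which reversed to 0.0075 with the median gene set to 0. The median log2 ratio of the 10 genes ranged from 0.031 (scaled to totals) to 0.134 (median gene set to 0). Over the same settings, the median of the genes with at least 10 mean reads moved from -0.103 to 0. At a threshold of 0.01 the higher CDK inhibitors numbered 1, the higher MuvB genes 0 and all called genes 1458. Requiring also an absolute log2 ratio of 0.5 left 0 lower CDK inhibitors, 0 higher MuvB genes, 0 higher MYC targets and 1325 called genes. At a threshold of 0.1, 1 E2F target, 1 gene of the MYC network and 1 MYC target were called lower, and 2 MYC targets higher. With the longest transcript as length, chosen after seeing the data, the Cdk2 share of the G1 kinases was 2.65% in pregnant and 2.16% in nonpregnant islets, against 1.64% and 1.34% with the exon union. Genes with few reads, such as Cdk6, have ratios that a change of a few reads would move.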

Other observations

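All cyclins and cyclin-dependent kinases were counted by symbol, the D and E cyclins and the G1 kinases among them, a choice made after the data were seen. Of 23 cyclin genes with a symbol of Ccn, a letter and at most 1 digit, 6 were higher (26.1%, against 7.57% of all genes) and 0 lower by the authors' deposited table, with a median log2 ratio of -0.021. Beside the E cyclin genes Ccne1 and Ccne2, the higher genes were the mitotic cyclin genes Ccna2, Ccnb1 and Ccnb2 and Ccnf, which encodes an F-box protein. Ccnb2 rose 4.52-fold, Ccnb1 4.12-fold, Ccnf 3.63-fold and Ccna2 3.14-fold by the authors' deposited table. The genes of the transcriptional cyclins were not called, and by the authors' deposited table their ratios were 0.91 for Ccnc, 1.0 for Ccnh, 0.88 for Ccnk, 0.74 for Ccnl1, 0.65 for Ccnl2, 0.83 for Ccnt1 and 0.7 for Ccnt2. Of 18 cyclin-dependent kinase genes, 1 was called higher (5.56%, against 7.57% of all genes), a share no larger than that of the whole table. It was Cdk1 of mitosis, with 718 mean reads in pregnant islets and 149 mean reads in nonpregnant islets (4.92-fold by the authors' deposited table, adjusted p = 3.41e-19).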
